A study of Cavia porcellus with 72 samples.

Results

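Messenger RNA was sequenced from the hippocampus of young female guinea pigs in 3 generations. The genes described here are the aminoacyl-tRNA synthetases and the genes of the amino acid response. They were listed by symbol and then selected on 1 measured value, the presence of a row in a generation's table of counts. Of 47 listed symbols, 43 had a row in F1, 42 in F2 and 43 in F3, out of 11651, 11716 and 11663 genes in these tables and 11927 genes in at least 1 of them. HARS, HARS2, SARS2 and PSAT1 had no row in the tables used here and are not analysed further, and TARS2 had none in F2. All members with a row also passed the filter on low counts. They comprised 19 cytosolic synthetases, 13 mitochondrial synthetases, 3 enzymes of amino acid synthesis, 5 regulators and targets of the ATF4 pathway and 3 subunits of amino acid transporters.

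The animals descended through the paternal line from F0 pregnancies in which the mother received the synthetic glucocorticoid (sGC) betamethasone or saline (control). The F1 generation was exposed in the womb, and F2 and F3 were sired by F1 and F2 males mated with unexposed females. All were Dunkin-Hartley females killed on postnatal day 40, each from a different mother, and the right hippocampus was ground whole. There were 6 control and 5 sGC animals in F1, 6 of each in F2, and 6 control and 7 sGC animals in F3, with 1 RNA library per animal. In such bulk tissue, fewer cells of a type and less RNA per cell cannot be told apart. The comparison of sGC with control in each generation asks whether exposure of the F0 pregnancy is followed by altered transcription in the descendants.

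Aminoacyl-tRNA synthetases join each amino acid to its transfer RNA and so supply the ribosome. Most amino acids have a cytosolic enzyme and a separate, nuclear-encoded enzyme for the mitochondrion, while GARS and KARS serve both compartments from a single gene. Several cytosolic enzymes are held together in the multisynthetase complex by scaffold proteins of the AIMP family. When amino acids run short, uncharged transfer RNA activates the kinase GCN2, the initiation factor eIF2 is phosphorylated, and translation of the transcription factor ATF4 increases. ATF4 then raises transcription of many cytosolic synthetases, of asparagine and serine synthesis enzymes, and of the amino acid transporters. In brain, the serine synthesis enzyme PHGDH and the cystine transporter SLC7A11 are known chiefly from astrocytes.

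Reads counted per library ranged from 13507449 to 19767033. Of 7 markers of hippocampal neurons, 6 were measured in each generation, and their summed level lay between 5623 and 8793 counts per 1e+06 reads (CPM) in the 36 libraries. Among the library numbers given in the labels, 32 to 36 belong to 5 sGC libraries and to no control library, namely replicates 4 and 5 in F1, 6 in F2, and 5 and 6 in F3. Library number and exposure therefore overlap in part, and results were also computed without these libraries. One library, sGC replicate 4 of F1, stood apart: of the 11 F1 libraries, it was the lowest in 16 of the 19 cytosolic synthetases. Levels of some members differed between the tables in control animals too, so levels are compared only within a generation. Control means of MARS2, for example, were 14.3 CPM in F1, 22.1 in F2 and 14.4 in F3.

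In F3, 6 of 19 cytosolic synthetases and the asparagine synthetase ASNS were called lower in sGC animals. The mitochondrial methionine enzyme MARS2 and the cystine transporter SLC7A11 were called higher. The 6 cytosolic enzymes were EPRS, FARSB, IARS, LARS, SARS and YARS, and their decreases lay between 7.81% and 11.5%. MARS2 was higher by 38.0% and SLC7A11 by 16.1%. A gene is called changed where the quasi-likelihood test of edgeR, adjusted over all genes tested by the method of Benjamini and Hochberg, gave an adjusted p below 0.05. Of 43 members, 7 were called lower, against 2.87% of the 11359 genes tested, and 2 were called higher, against 2.17%. Without the libraries numbered 32 to 36 the members called fell from 9 to 1, MARS2, although the log2 fold changes of the other 8 kept their sign and lay between -0.17 and 0.19 with adjusted p between 0.0599 and 0.0926. Calls over all genes fell there too, from 573 (5.04%) to 317 (2.79%). Without sGC replicate 5 alone, 4 were called, which were FARSB, MARS2, SARS and SLC7A11, against 2.54% of all genes.

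In F1 and F2 no member was called. In F1, edgeR called 2.08% of 11377 genes and 0 of 43 members. The likelihood ratio test and DESeq2 gave 0 members as well, where 5.26% and 5.78% of all genes were called. In edgeR, 5 members had an unadjusted p below 0.05, a share of members below the 19.6% of all genes at that level. In F2, edgeR called 0% of 11414 genes and 0 of 42 members, and 7 members had an unadjusted p below 0.05 against 6.64% of all genes. Again 0 members were called by the likelihood ratio test and by DESeq2, against 0.0526% and 0.105% of all genes. Fitting the 3 generations in 1 model called 2 members in F1, ASNS at a log2 fold change of -0.14 and SLC7A11 at 0.34, a share of the 42 members below the 7.48% of all genes called in that fit.

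The difference in effect between generations was tested as an interaction over all 36 libraries for the 42 members present in all 3 tables. No member was called in F2 against F1, where 0.29% of 11390 genes were, nor in F3 against F1 or F3 against F2, where 0% of genes were called in each. At an unadjusted p below 0.05 there were 4, 5 and 8 members, where 16.8%, 13.1% and 9.08% of all genes lay at that level. The likelihood ratio test and DESeq2 also called 0 members in each of these contrasts. Of all genes they called 1.47% and 2.37% in F2 against F1, 0.509% and 0.588% in F3 against F1, and 0% in F3 against F2. The smallest adjusted p in F3 against F1 was 0.142, for MARS2, at a difference in log2 fold change of 0.41 (standard error 0.116). The effects in F3 were therefore not shown to differ from those in F1 or F2. Without sGC replicate 4 of F1, however, 3 members were called in F3 against F1, EPRS, IARS and LARS, with differences of -0.16, -0.17 and -0.20 and adjusted p of 0.0402, 0.0395 and 0.0260 from edgeR, where 3.98% of all genes were called. Without the libraries numbered 32 to 36, 1 member was called there, LARS at -0.21, against 3.77% of all genes.

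**Figure D1:**
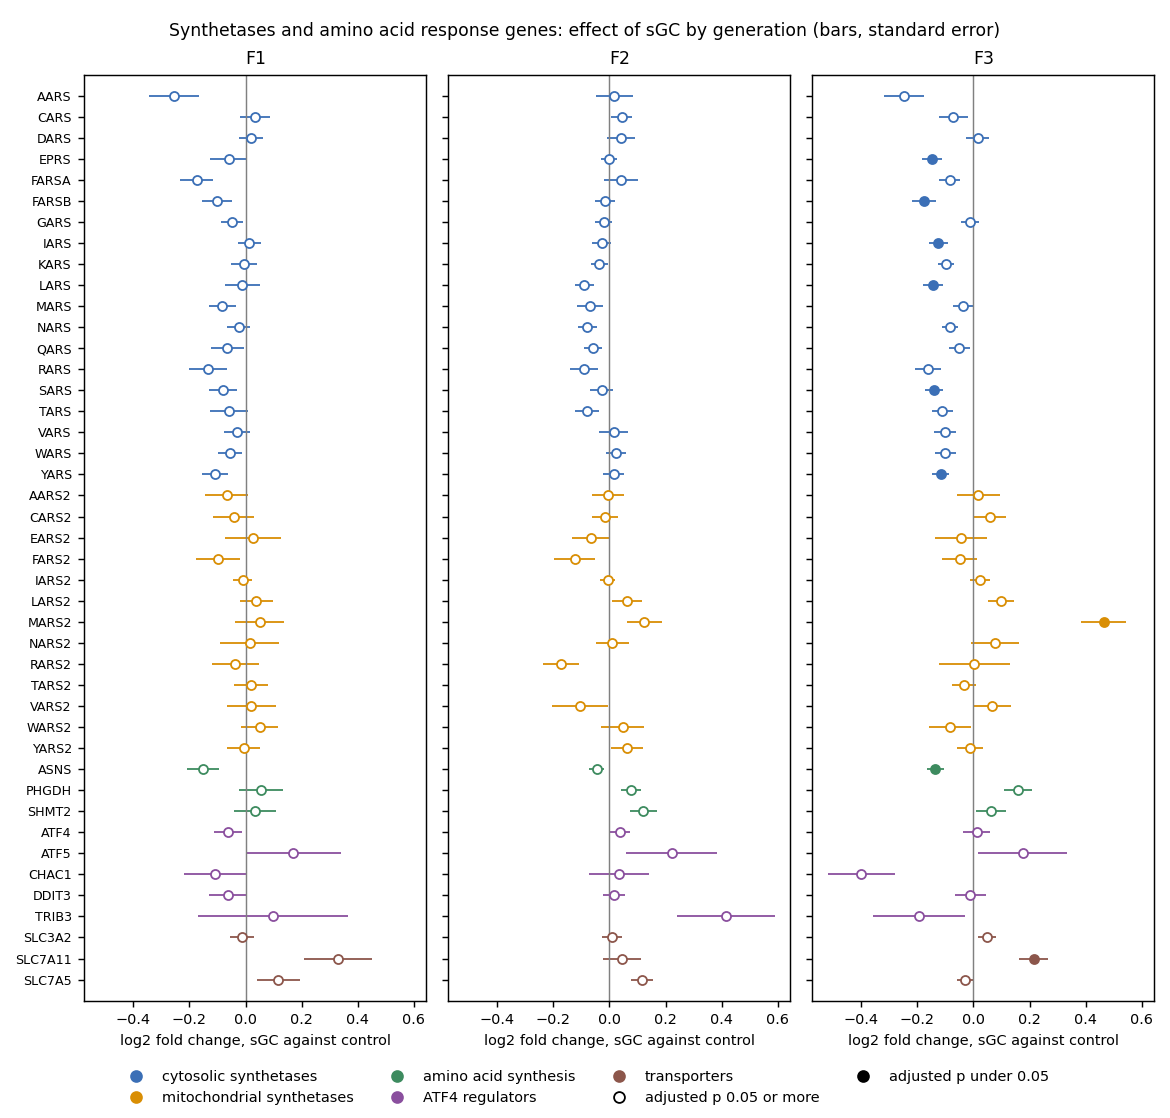
Log2 fold change of sGC against control (horizontal axis) for each of the 43 members, in F1, F2 and F3. Points are edgeR estimates, bars their standard error, colours the role and filled points an adjusted p below 0.05; filled points appear only in F3, where 18 of 19 cytosolic synthetases lie left of 0.

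Among the cytosolic synthetases of F3, EPRS, which charges both glutamate and proline, ranged in control animals from 113.95 to 127.97 CPM with a median of 116. In sGC animals it ranged from 101.96 to 112.65, with a median of 107, and no sGC animal reached the lowest control. The estimate on the log2 scale was -0.15 with a standard error of 0.0362, and edgeR gave an adjusted p of 0.0275. LARS, the leucine enzyme, which has also been described as a leucine sensor of the mTORC1 pathway, ran from 84.5 to 91.9 CPM in control animals, with a median of 85.4, and from 72.7 to 84.4 in those of the sGC line, with a median of 78.2. The groups again did not overlap, although the highest sGC and the lowest control animal were close, and the estimate was -0.15 (standard error 0.0354, adjusted p = 0.0267). YARS, the tyrosine enzyme, had a lowest, median and highest level of 103, 107 and 111 CPM in control and of 95.4, 97.9 and 102.05 CPM in sGC animals, without overlap. It changed by -0.12 on the log2 scale (standard error 0.0292, adjusted p = 0.0280).

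The other 3 called cytosolic enzymes overlapped between groups. SARS, the serine enzyme, had 172 to 186 CPM in control animals (median 180.67) and 159 to 175.4 in sGC animals (median 163), and 6 of 7 sGC animals lay below the lowest control. Its change of -0.14 (standard error 0.0317, adjusted p = 0.0175) had the smallest p of the cytosolic group. FARSB, the beta subunit of the phenylalanine enzyme, had 75.6 to 86.8 CPM in control animals (median 83.6) and 68.2 to 78.4 in sGC animals (median 72.9), with 5 of 7 below the lowest control. The change was -0.18 (standard error 0.0417, adjusted p = 0.0222), the lowest of the called members. Its partner FARSA, the alpha subunit of the same enzyme, had 69.6 to 74.3 CPM in control (median 71.3) and 61.2 to 72.9 in sGC animals (median 67.4), a log2 fold change of -0.09 that did not pass the test (adjusted p = 0.212). IARS, the isoleucine enzyme, had 75.3 to 80.9 CPM in control (median 78.5) and 67.6 to 75.5 in sGC animals (median 72.0). In 6 of 7 sGC animals it was below the lowest control, and its change was -0.13 (standard error 0.0338, adjusted p = 0.0408).

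The uncalled cytosolic enzymes of F3 had log2 fold changes from -0.25 to 0.01. The lower end was AARS, the alanine enzyme, named here after its values were seen: its log2 fold change was -0.25 and its adjusted p 0.0516, and in DESeq2 and the likelihood ratio test it passed. The upper end was DARS, the aspartate enzyme, the only cytosolic member above 0. In all, 18 of 19 cytosolic synthetases were lower and 14 had an unadjusted p below 0.05, a level that 21.1% of all genes reached, and the median log2 fold change was -0.10, against 0.00476 over all genes tested, of which 48.3% were lower. Of the 19, 18 stayed lower without the libraries numbered 32 to 36, with a median of -0.10. The sum over the 19 genes ran from 2209 to 2279 CPM in control animals and from 1991 to 2138 in sGC animals, so that these ranges did not overlap. Genes with more reads give smaller errors, and a cytosolic synthetase had a median of 1302.5 reads per library in F3, against 606 over all genes tested and 283 for the mitochondrial enzymes.

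Called members stood in both structural classes of the cytosolic enzymes, and both inside and outside the multisynthetase complex. EPRS, which charges both glutamate and proline, was counted in class I only. Of the 10 enzymes counted as class I, 10 were lower in F3 and 4, EPRS among them, were called, at a median log2 fold change of -0.11. Of 9 counted as class II, 8 were lower and 2 were called, at a median of -0.10. Of 8 genes of the complex, 7 were lower and EPRS, IARS and LARS were called, at a median of -0.11. The complex member DARS was the exception at 0.01.

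**Figure D2:**
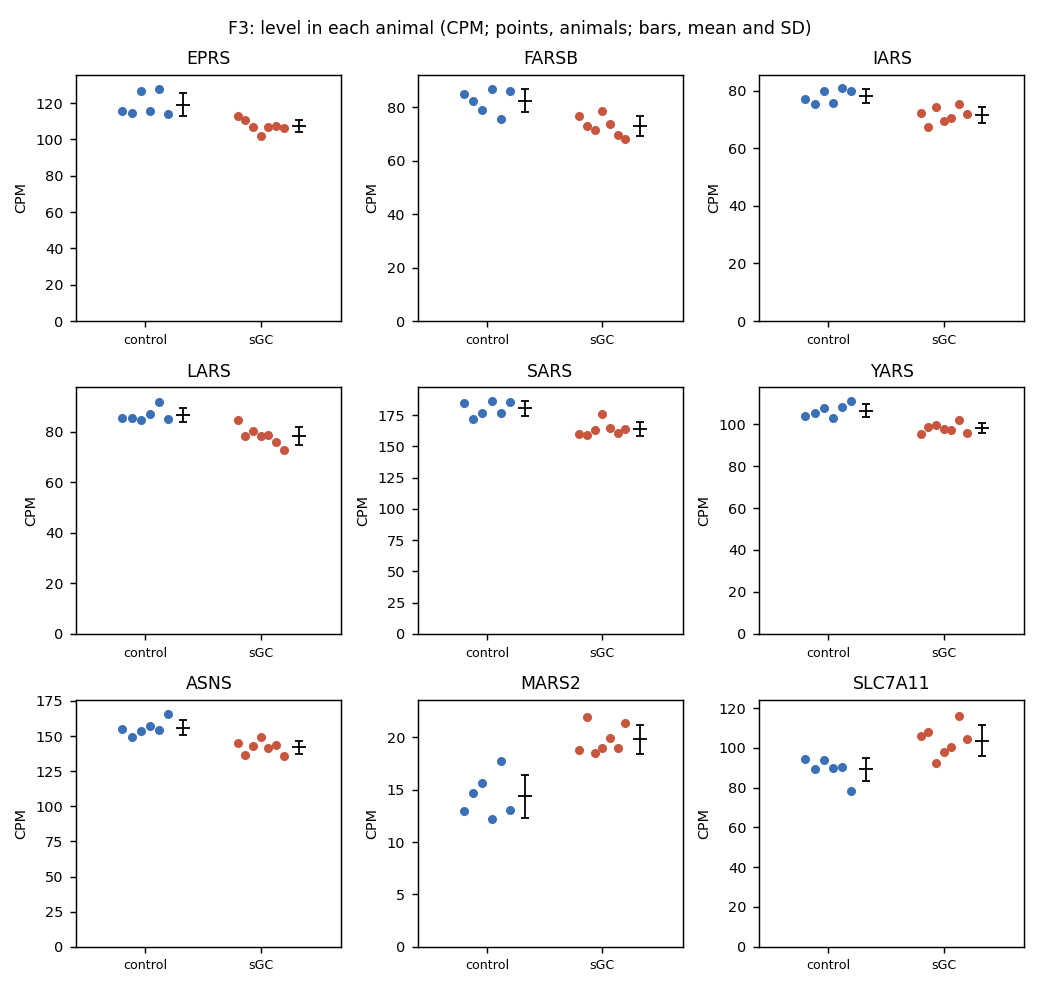
Level in CPM (vertical axis, from 0) of the 9 members called in F3, 1 panel per gene, with control animals in blue and sGC animals in red. Points are animals and bars the mean and SD; EPRS, LARS, YARS and ASNS have every sGC animal below every control, MARS2 has every sGC animal above, and the remaining 4 overlap.

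Across all 43 members of F3, the groups did not overlap in 5 genes with sGC lower, EPRS, LARS, NARS, YARS and ASNS, against 1.88% of all genes tested, and in 1 gene with sGC higher, MARS2, against 0.836%. In F1, 0 of 43 members had no overlap in either direction, where 1.96% of genes were wholly lower and 2.45% wholly higher. In F2, 0 of 42 members had none, where the shares were 0.184% and 0.219%.

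In F1, 16 of 19 cytosolic synthetases were lower, with a median log2 fold change of -0.06, against -0.00547 over all genes tested, of which 51.7% were lower. Without sGC replicate 4, 11 of 19 were lower and the median was -0.01. FARSA had the smallest p of the group. Its control animals ranged from 69.6 to 76.9 CPM (median 75.4), and the sGC animals had 67.8, 73.2, 66.8, 55.1 and 67.6 CPM, 4 of 5 below the lowest control. The estimate was -0.17 (standard error 0.0593, adjusted p = 0.130), and it was -0.11 both without sGC replicate 4 and without the libraries numbered 32 to 36. AARS had the same estimate in F1 as in F3, -0.25, with an adjusted p of 0.138 in F1, and it was 0.02 in F2. Both AARS estimates come from different animals, but sGC replicate 4 moved the one in F1, which was -0.19 without it.

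In F2, 12 of 19 cytosolic synthetases were lower, with a median log2 fold change of -0.02, against 50.3% of all genes. LARS had the smallest p there, with 89.3 to 99.7 CPM in control animals (median 94.6) and 84.5 to 94.2 in sGC animals (median 89.8). The change was -0.09 (standard error 0.0345, adjusted p = 0.711), and the level was under the control mean in 6 of 6 sGC animals. The summed level of the 19 genes overlapped almost fully in F2, at 2047 to 2207 CPM in control and 2039 to 2198 in sGC animals. In F1 the sums overlapped too, at 2111 to 2289 and 1867 to 2193 CPM, with sGC replicate 4 at the low end.

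**Figure D3:**
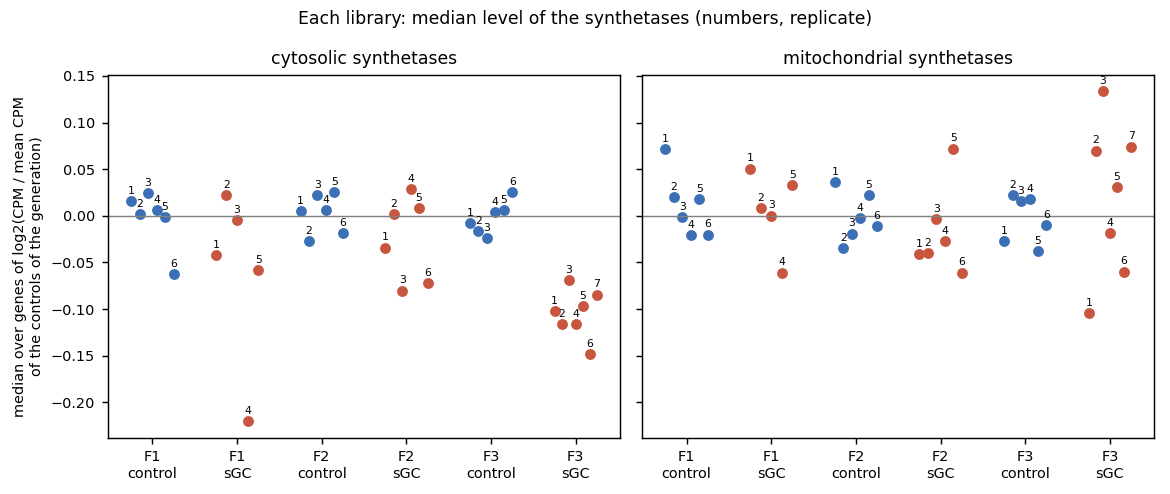
For each library (points, numbered by replicate), the median over cytosolic (left) and mitochondrial (right) synthetases of the log2 ratio of its CPM to the mean CPM of the controls of its generation. The 7 sGC libraries of F3 lie between -0.15 and -0.07 for the cytosolic genes, below all 6 controls, and F1 sGC replicate 4 lies at -0.22.

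The log2 fold changes of the mitochondrial synthetases were spread around 0. In F3, 8 of 13 were higher, with a median log2 fold change of 0.02, and 1 was called, MARS2. MARS2, which charges the mitochondrial methionine transfer RNA used to start and extend mitochondrial proteins, had 12.2 to 17.7 CPM in control animals (median 13.8) and 18.5 to 21.9 in sGC animals (median 19.035). Every sGC animal was above every control, and the estimate was 0.46 (standard error 0.0796, adjusted p = 0.00526). It passed the test without each single library and without the libraries numbered 32 to 36, where it was 0.48 with an adjusted p of 0.0221. DESeq2 gave it a log2 fold change of 0.47 and an unadjusted p of 4.9e-08, with no adjusted p. MARS2 rested on 204 to 406 reads per library in F3.

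The other 12 mitochondrial enzymes had log2 fold changes between -0.08 and 0.10 in F3. FARS2 and RARS2, which had the smallest p of the group in F1 and in F2, were at -0.05 and 0.00 in F3. In F1, FARS2 had 11.0 to 13.9 CPM in control animals (median 12.4) and 10.3, 12.97, 11.9, 11.7 and 11.95 CPM in sGC animals, a change of -0.10 (adjusted p = 0.501). RARS2 had 9.40 to 11.3 CPM in F2 control animals (median 10.2) and 8.47 to 9.70 in sGC animals (median 9.20), a change of -0.17 (adjusted p = 0.711). Medians of the mitochondrial group were 0.01 in F1 and -0.01 in F2. These enzymes have fewer reads, so that changes of the size seen in the cytosolic group are harder to detect in them, with standard errors from 0.0356 to 0.126 in F3.

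Set side by side for the same amino acid, the cytosolic estimate lay below the mitochondrial one in 14 of 14 pairs in F3, with a median distance of 0.14 on the log2 scale. In 8 of these pairs the cytosolic gene was below 0 and the mitochondrial gene above. The distance was widest for methionine, with MARS at -0.04 and MARS2 at 0.46, and for alanine, with AARS at -0.25 and AARS2 at 0.02. It was narrowest for tryptophan, with WARS at -0.10 and WARS2 at -0.08. In F1 the cytosolic estimate was the lower in 12 of 14 pairs, with a median distance of 0.08, and in F2 in 6 of 13, with a median of -0.02. Pairs share the same animals, FARS2 stands in 2 pairs, and the distances are given without a test.

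**Figure D4:**
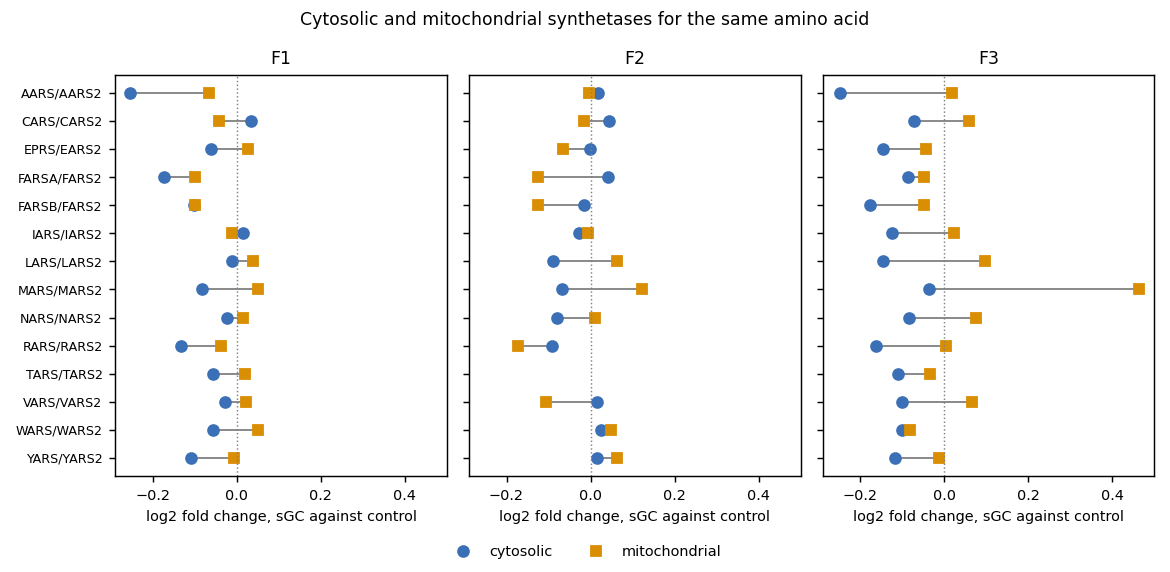
Log2 fold change of sGC against control (horizontal axis) of the cytosolic (circles) and mitochondrial (squares) synthetase for the same amino acid, joined by a line, in each generation. In F3 every circle lies left of its square.

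Of the enzymes of amino acid synthesis, ASNS, which makes asparagine and is a standard target of ATF4, was lower in F3. Control animals ranged from 149.61 to 165.62 CPM with a mean of 156, and sGC animals from 135 to 149.02 with a mean of 142, without overlap. This was a change of -0.14 (standard error 0.0317, adjusted p = 0.0205). In F1, ASNS had 153 to 169.97 CPM in control animals (median 160.5), while the sGC animals had 154, 153, 152, 122 and 145 CPM. The change in F1 was -0.15 (standard error 0.0574, adjusted p = 0.167), and -0.09 without sGC replicate 4, the lowest of these. In F2 it was -0.05 (adjusted p = 0.773), with 5 of 6 sGC animals below the lowest control. The remaining sGC animal, replicate 3, had 174.12 CPM, just above the highest control at 173.84.

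In F3 the 2 enzymes of the serine pathway had estimates above 0, though neither was called. PHGDH, the first enzyme of serine synthesis, had 70.0 to 76.3 CPM in F3 control animals (median 73.2) and 74.3 to 90.7 in sGC animals (median 79.0), and 5 of 7 sGC animals lay above the highest control. The log2 fold change of 0.16 did not pass the test (standard error 0.0493, adjusted p = 0.0713), though it passed in DESeq2 and in the likelihood ratio test. It was 0.06 in F1 and 0.08 in F2. The sign in F1 rested on sGC replicate 4, since the estimate was -0.03 without it and -0.08 without the libraries numbered 32 to 36. SHMT2, which turns serine into glycine in the mitochondrion, had its smallest p in F2. There, control animals had 22.4 to 25.7 CPM (median 23.6) and sGC animals 24.1 to 26.9 (median 26.3), a change of 0.12 (adjusted p = 0.711), and it was 0.03 in F1 and 0.06 in F3. In F1 it too turned below 0, to -0.03 without sGC replicate 4 and -0.05 without the libraries numbered 32 to 36.

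ATF4 itself differed little at the level of messenger RNA. In F3 it had 236 to 279 CPM in control animals (median 248) and 226 to 281 in sGC animals (median 255), nearly the same range. In F1, the generation with its smallest p, it had 233 to 272 CPM in control animals (median 251) and 247, 219, 243, 258 and 231 CPM in sGC animals. The log2 fold changes were -0.06, 0.04 and 0.01 in F1, F2 and F3, with standard errors of 0.0509, 0.0374 and 0.0480 and adjusted p from 0.526 to 0.927. Because ATF4 is controlled mainly through translation, its message does not measure the protein. DDIT3, also called CHOP, a transcription factor induced by prolonged stress of this pathway, was at -0.06, 0.02 and -0.01. In F3 it ranged from 40.6 to 50.8 CPM in control and from 42.0 to 51.8 in sGC animals, with a median of 46.0 in each.

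CHAC1, which degrades glutathione and is a sensitive target of ATF4, had the estimate furthest from 0 among the ATF4 regulators and targets in F3. Control animals had 3.86 to 5.94 CPM (median 4.75) and sGC animals 2.76 to 4.30 (median 3.65), with 5 of 7 below the lowest control and all 7 below the control mean. Its change of -0.40 (standard error 0.119, adjusted p = 0.0629) did not pass, and it was -0.11 in F1 and 0.03 in F2. It passed in the likelihood ratio test (adjusted p = 0.0334) and in edgeR's fit of 1 model for all generations (adjusted p = 0.0434). DESeq2 gave it an unadjusted p of 0.0040 and no adjusted p. It rested on 51 to 93 reads per library in F3. TRIB3, a pseudokinase that restrains ATF4, had 1.01 to 1.97 CPM in F3 sGC animals (median 1.22) and 1.25 to 1.79 in control animals (median 1.58), a change of -0.19 (adjusted p = 0.534). In F2 it was at 0.42 (adjusted p = 0.711), with 5 of 6 sGC animals above the highest control, on 15 to 40 reads per library. ATF5, a factor related to ATF4, was at 0.17, 0.22 and 0.18 in the 3 generations with standard errors from 0.158 to 0.169. In F2 the control animals of TRIB3 had 0.906 to 1.66 CPM (median 1.49) and the sGC animals 1.44 to 2.52 (median 1.74). In these low genes a change of the size called in the cytosolic synthetases would be hard to detect at this depth. CHAC1, TRIB3 and ATF5 had standard errors of 0.119, 0.163 and 0.1585 in F3.

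**Figure D5:**
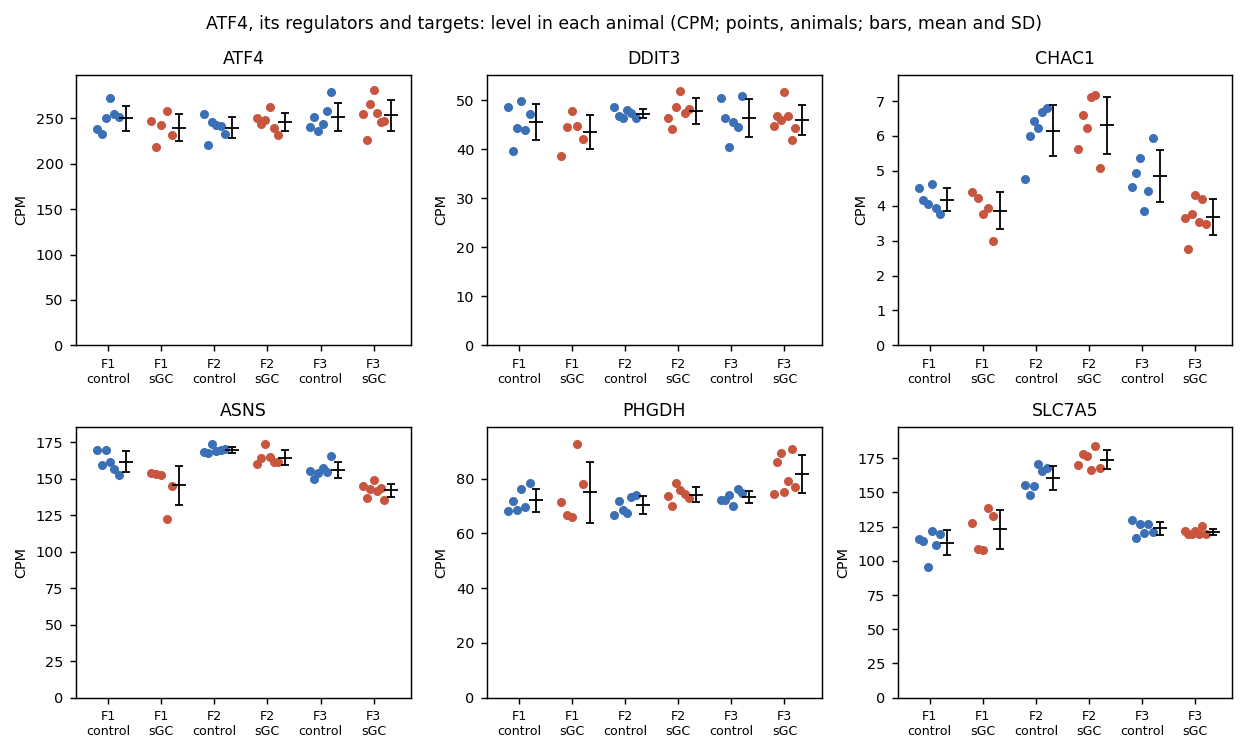
Level in CPM (vertical axis, from 0) of ATF4, DDIT3, CHAC1, ASNS, PHGDH and SLC7A5 in control (blue) and sGC (red) animals of F1, F2 and F3. Points are animals and bars the mean and SD; ATF4 and DDIT3 overlap in every generation, and ASNS separates the groups in F3.

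Among the transporters, SLC7A11, which imports cystine in exchange for glutamate, had 78.5 to 94.6 CPM in F3 control animals (median 89.9) and 92.2 to 116 in sGC animals (median 104). In 6 of 7 sGC animals it was above the highest control, and the estimate was 0.22 (standard error 0.0517, adjusted p = 0.0242). In F1, control animals had 69.8 to 105 CPM (median 80.5), and the sGC animals had 83.5, 105, 92.4, 136.8 and 101.6 CPM. The estimate in F1 was 0.33 (adjusted p = 0.157), and 0.21 without sGC replicate 4, the highest of these, while F2 gave 0.04. SLC3A2, the heavy chain shared by the transporters SLC7A5 and SLC7A11, was at -0.01, 0.01 and 0.05 in F1, F2 and F3. SLC7A5, which carries large neutral amino acids such as leucine, had the smallest p of all members in F2. Its control animals there had 148 to 171.09 CPM (median 161) and its sGC animals 167 to 184 (median 173.5), a change of 0.12 (standard error 0.0394, adjusted p = 0.678), with 6 of 6 above the control mean. It was 0.12 in F1 and -0.03 in F3. The 2 highest of these sGC animals, replicates 2 and 5, were also the 2 libraries of F2 with the highest summed level of 4 choroid plexus markers, at 707 and 673 CPM, mostly from the thyroxine carrier TTR. Control replicates 1 and 4 had 499.6 and 218 CPM, with SLC7A5 at 156 and 171.09, and the other 8 libraries had 23.2 to 58.6. The estimate was 0.11 without sGC replicate 2 and 0.10 without sGC replicate 5, and the part of these markers in it was not tested.

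Other genes of the pathway were read from fixed lists, and no list was tested as a set. The shares over all genes were 5.04% called and 48.3% lower in F3, and 2.08% called and 51.7% lower in F1. In F3, 1 called gene in a list of 14 to 20 lies close to the share called. Of 5 measured scaffold proteins and further synthetases, 4 were lower in F3 and 1 was called. This was AIMP2, the scaffold on which the multisynthetase complex is built, which went from 48.3 ± 2.75 CPM (SD, n = 6) to 42.2 ± 2.48 (SD, n = 7). The change was -0.20 on the log2 scale (adjusted p = 0.0255). Of 16 measured genes of the integrated stress response, meaning the kinases of eIF2, its exchange factor eIF2B and their regulators, 11 were lower in F3 and 1 was called. This was EIF2B2, a subunit of eIF2B, at -0.15 (adjusted p = 0.0496). Of 20 further targets of ATF4, 11 were higher and 9 lower in F3, with a median log2 fold change of 0.01. The 1 called was NUPR1, a stress-induced chromatin protein, at 0.44 (adjusted p = 0.0470). Of 14 genes of the unfolded protein response of the endoplasmic reticulum, 11 were lower in F3 and 13 in F1. The median log2 fold changes were -0.08 and -0.15. In edgeR 4 in F3 and 9 in F1 had an unadjusted p below 0.05, where 21.1% and 19.6% of all genes did. The part of sGC replicate 4 in the F1 values of this list was not tested. In F3 HYOU1, a chaperone, fell by 0.12 on the log2 scale (adjusted p = 0.0379), and in F1 PDIA6, a disulfide isomerase, fell by 0.20 (adjusted p = 0.0466). In F2, 0 genes of these 4 lists were called, where 0% of all 11414 genes tested were.

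Markers of other cell types moved in the same libraries. All 8 astrocyte markers were higher in F3, against 5878 of the 11359 genes tested, at a median log2 fold change of 0.19. GLUL, S100B and SLC1A2 were called, where 2.17% of all genes were called higher. The summed level of the 8 markers ran from 9184 to 10165 CPM in control animals and from 10382 to 11931 in sGC animals, without overlap, the reverse of the summed cytosolic synthetases. In F1 8 of 8 were higher, at a median of 0.24 with none called, and the sum ran from 8308 to 10853 CPM in control and from 9481 to 15487 in sGC animals. The top value of F1 was sGC replicate 4, which was also the lowest in cytosolic synthetases and the highest in SLC7A11 and PHGDH. In F2 the ranges overlapped, from 10410 to 12039 and from 10441 to 12589 CPM. The part of the astrocyte markers in the results for the synthetases, PHGDH and SLC7A11 was not tested. The 6 meningeal fibroblast markers were all lower in F1, where the sum ran from 100.5 to 279 CPM in control and from 71.2 to 138 in sGC animals, with DCN and LUM called, and all higher in F3, where none was called and the sum ran from 114 to 184 and from 117 to 225. Among all genes tested in F1, 2.08% were called and 51.7% were lower. The part of the fibroblast markers was not tested either. Of the other lists in F3, 6 of 6 microglial and 6 of 6 endothelial markers were higher, as were 2 of 3 oligodendrocyte markers and 1 of 2 choroid plexus markers, with none called. Of the 6 hippocampal neuron markers, 4 were lower in F3, at a median log2 fold change of -0.05 with none called. Their sum had a lowest, median and highest value of 6100, 6214 and 6607 CPM in control and of 5623, 7286 and 8192 CPM in sGC animals, most of it from CAMK2A, a kinase of excitatory neurons, at 5619 ± 205 CPM (SD, n = 6) and 6376 ± 873 (SD, n = 7). The part of these lists was not tested.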

How the data were processed

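The values deposited by the authors are raw counts, not normalized, from single-end reads of mRNA-enriched libraries (TruSeq v2, which does not mark strand). TopHat2 is named in the submitters' processing notes. The counter, genome build and annotation are not given in the sources used here, and reads of overlapping genes cannot be told apart. Columns of the authors' own edgeR comparison, and tables of methylation differences with their p-values, were not used.

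The tools were edgeR 4.0.16 and DESeq2 1.42.0 in R 4.3.3, and Python 3.11.15 with matplotlib 3.10.9. Low genes were removed by filterByExpr and library sizes scaled by TMM. Within a generation, sGC was tested against control by the quasi-likelihood method of edgeR, with Benjamini-Hochberg adjustment over all genes and a threshold of 0.05. Interactions used all 36 libraries. CPM are counts per 1e+06 TMM-scaled reads. The fits were also run on simulated data, with changes larger than those of the called cytosolic synthetases and no outlying libraries. That run says nothing about changes as small as those. The members, lists and alternatives were chosen with earlier results of these data known. Values per animal are given for members called anywhere, for the smallest p of each role group in each generation, and for pathway landmarks. Alternatives were the likelihood ratio test, DESeq2, RLE size factors, no filter on low counts, 1 model for all generations, a replicate block, and leaving out libraries. Sequences and transcript lengths are not used here.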

Additional observations from a re-analysis of the deposited data

Results flagged for a closer look

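In each group of 5 to 7 libraries, the highest and lowest library was compared with the others for the members named above and for the summed level of each role group. A library stood apart by its gap to the next one, relative to the range of the group. Of 156 such groups, 13 had a library that stood apart, where chance gives about 1 in 20. The groups share animals, the sums include named members, and many members were named for their p, so this count is not a test. In F1 sGC animals, replicate 4 was low in EPRS (91.2 CPM, the next 118) and in ASNS (122 CPM, the next 145). In F1 control animals, replicate 2 was high in TRIB3, at 3.07 CPM. In F2 sGC animals, replicate 3 was high in ASNS (174 CPM), in ATF5 (2.07 CPM) and in the summed enzymes of amino acid synthesis (279 CPM), and in F2 control animals replicate 4 was low in TRIB3, at 0.906 CPM. In F3 control animals, LARS was high in replicate 5 (91.9 CPM), SLC7A11 was low in replicate 6 (78.5 CPM), and the summed amino acid synthesis enzymes were high in replicate 6 (266 CPM). In F3 sGC animals, SARS was high in replicate 4 (175.4 CPM), SLC3A2 in replicate 3 (149 CPM), and the summed transporters in replicate 6 (381 CPM).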

How the results depend on the processing

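Leaving out 1 library at a time kept the count of members at 0 in F1 and in F2, gave 4 to 10 in F3, and gave 0 in F2 against F1 and in F3 against F2 and 0 to 3 in F3 against F1. Of all genes, these fits called 0.49% to 3% in F1, 2.54% to 5.63% in F3 and 0% to 3.98% in F3 against F1. The count of 9 in F3 became 13 with the likelihood ratio test or DESeq2, 9 with RLE size factors or without the filter, 6 in 1 model for all generations, and 1 without the libraries numbered 32 to 36. Calls over all genes in F3 moved as well, from 5.04% to 6.94% with the likelihood ratio test and 8.31% with DESeq2. RLE size factors gave 4.91%, no filter 4.71%, 1 model 2.93%, and leaving out the libraries numbered 32 to 36 gave 2.79%. That setting also called 1 member in F3 against F1, and 1 model for all generations called 2 in F1. No called member changed sign under any alternative run. MARS2 and SARS passed without each single library, and the other 7 lost the call without at least 1 of them, IARS most often, in 10 of 13. DESeq2 gave no adjusted p for MARS2 and CHAC1 in F3, so neither could be among its 13 called members. The median log2 fold change of the cytosolic synthetases stayed below 0 in every alternative run, at -0.08 to -0.01 in F1, -0.03 to -0.01 in F2 and -0.12 to -0.09 in F3. Of the 15 medians over role and generation, 5 changed sign in at least 1 alternative. That of amino acid synthesis in F1 went from 0.03 to -0.03 without sGC replicate 4 and to -0.08 without the libraries numbered 32 to 36. The mitochondrial medians in all 3 generations and that of the ATF4 regulators and targets in F3 crossed 0 as well.

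The replicate block, a term for the replicate number shared by control and sGC animals, called 2 members in F3, AARS and MARS2, and 0 in F1, in F2 and between generations. Of all genes it called 1.51% in F3, against 5.04% without it, 0.633% in F1 and 0% in F2. Between generations it called 0.0351% in F2 against F1 and 0% in F3 against F1 and in F3 against F2. Animals without a same-numbered partner in the other group were left out of it. Same-numbered animals did not deviate together: of 17 pairs, 3 had a correlation over 0.1, the range was -0.415 to 0.325, and 2 correlated best with their own number, so the numbers were not taken as pairs.

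Depth limits TRIB3, ATF5 and CHAC1 most, at 15 to 113 reads per library.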
